A study of Caenorhabditis elegans with 2 samples.

Results

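The regions described here are the NHR-48 binding peaks that lie in introns of protein-coding genes of Caenorhabditis elegans. They were taken from the deposited list of peaks that passed an irreproducible discovery rate (IDR) filter on genome build ce11, and a peak belonged when its summit fell inside a protein-coding gene, in no exon of any gene, and more than 500 bp from any tRNA gene. Of 3338 nuclear IDR peaks, 674 met the rule, or 20.2% (95% exact interval 18.8 to 21.6%). Within that list the rule used position only. The IDR filter had already kept peaks by the agreement of their ranks in both replicates, so the members were not chosen independently of binding. Another 40 intronic summits lay within 500 bp of a tRNA gene and were left out.

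Chromatin immunoprecipitation with an anti-GFP antibody was performed on whole hermaphrodite L4 larvae, 48.5 hours after synchronization at the L1 stage by bleaching and starvation, in 2 biological replicates. Every sample came from the same strain, OP518, which carries unc-119(tm4063) III and the transgene wgIs518, which stably expresses NHR-48 with GFP-FLAG at its C terminus. The strain is 1 transgenic line, and tissues were not separated. Regions were called against a control, per the file listings, but no reads of a control or an untagged strain were analysed here, so regions that would be recovered without NHR-48 could not be counted. The number of reads behind each peak was not given in the files, and the depth is therefore unknown. Intervals and tests below treat peaks as independent and cover counting error only.

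NHR-48 belongs to the nuclear hormone receptors, a family of zinc finger transcription factors that has expanded widely in nematodes and includes DAF-12, the steroid receptor of the dauer decision. Introns are where many C. elegans genes carry enhancers and internal promoters, and long introns, first introns above all, are known to hold more regulatory elements than the very short introns that make up most of the annotation. Messages of many worm genes are trans-spliced to a leader, so that an annotated 5′ end is often a splice acceptor and lies downstream of the place where transcription starts.

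The sequences around the strongest intronic summits are shown first, because the motif comparisons refer to them. Each is 100 bases centred on the summit, read 5′ to 3′ on the strand of the host gene from build ce11 (WBcel235), and lies wholly in intronic sequence. Capitals mark any of 6 motifs searched on both strands, namely the GA repeat GAGAGA, the E-box motif CACGTG, the site TGATAA of the type bound by GATA factors, and 3 hexamers of the nuclear receptor type. The first of these hexamers is AGTGCA, the next is AGGTCA, and the last is AGTTCA. A motif on the other strand appears as its reverse complement.
pqn-41, chrIII:1925315-1925414, plus strand, the strongest intronic peak: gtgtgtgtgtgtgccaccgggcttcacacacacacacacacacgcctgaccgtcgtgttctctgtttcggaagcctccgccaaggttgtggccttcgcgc
E01G4.3, chrII:13462221-13462320, minus strand, the strongest peak at an internal 5′ end, with GAGAGA: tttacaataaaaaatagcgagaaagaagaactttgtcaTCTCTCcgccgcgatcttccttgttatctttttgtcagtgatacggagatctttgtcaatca
pkg-2, chrIV:8527741-8527840, plus strand, the strongest peak with TGATAA: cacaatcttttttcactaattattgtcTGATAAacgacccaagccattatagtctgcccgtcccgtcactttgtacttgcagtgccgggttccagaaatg
pqn-41, chrIII:1921367-1921466, plus strand, its next strongest peak, with GAGAGA and AGTGCA: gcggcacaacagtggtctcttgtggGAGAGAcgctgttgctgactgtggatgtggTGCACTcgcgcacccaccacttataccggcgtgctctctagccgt
Y43F8B.2, chrV:19529340-19529439, minus strand, the strongest peak with CACGTG: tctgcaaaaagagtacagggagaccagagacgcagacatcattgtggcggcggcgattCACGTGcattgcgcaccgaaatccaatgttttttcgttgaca
mom-1, chrX:6296518-6296617, plus strand, with none of the motifs: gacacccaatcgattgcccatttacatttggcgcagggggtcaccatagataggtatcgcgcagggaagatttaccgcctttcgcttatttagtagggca
abts-4, chrX:6750272-6750371, minus strand, with CACGTG: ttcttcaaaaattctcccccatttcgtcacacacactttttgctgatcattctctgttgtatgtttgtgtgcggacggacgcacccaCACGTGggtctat
tre-2, chrIV:6881383-6881482, minus strand, the strongest peak with AGTTCA: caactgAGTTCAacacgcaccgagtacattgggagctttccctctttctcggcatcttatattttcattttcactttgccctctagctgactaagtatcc
T23B5.3, chrIV:12689818-12689917, plus strand, the strongest peak with AGGTCA: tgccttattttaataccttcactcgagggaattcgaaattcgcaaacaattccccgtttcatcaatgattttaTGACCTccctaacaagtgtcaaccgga

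The strongest intronic peak lay in pqn-41, which encodes a glutamine-rich, prion-like protein needed for the death of the linker cell. Signal here is the enrichment score the authors gave each region, whose scale the sources used here do not state, so values are compared within a list only. The pqn-41 peak had a signal of 2254.7 in the pooled data, 1388 in replicate 1 and 894.4 in replicate 2, and its summit lay in intron 14 of 22, a 10372 bp intron in the middle of the gene. Another pqn-41 summit in the same intron reached 1571.7 (1036 and 527.6 in replicates 1 and 2). The other 3 summits in that intron ranged from 103.5 to 537.5. None of the 5 lay near an annotated 5′ end of pqn-41 as defined below.

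The next strongest peak, with a signal of 1986 (1185.3 and 814.9 in the replicates), lay in E01G4.3, in a 504 bp intron and 226 bp upstream of an internal 5′ end of the gene. The cGMP-dependent protein kinase gene pkg-2 had a peak of 1661.4 (992.4 and 672.8) in intron 4 of 10, which is 6824 bp long. In Y43F8B.2 the strongest peak reached 1568.7 (976.7 and 596.4), in intron 4 of 6. These 4 genes held the 5 strongest intronic peaks, of which those in pqn-41 and E01G4.3 ranked first and next in both replicates.

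Peaks of 1311.7 (800.4 and 523.2) in the last intron of mom-1, the worm Porcupine homologue that processes Wnt ligands, and 1148.4 (715.9 and 436.8) in intron 2 of the trehalase gene tre-2 followed. The anion transporter gene abts-4 held summits of 1158.7 and 1068.2 in its intron 17. Among the 20 strongest peaks there were also summits in egl-27, an MTA-like chromatin gene (1008.2), in zfp-1, the homologue of the leukaemia fusion partner AF10 (717.3), in the autophagy gene epg-9 (705), and in the nuclear receptor genes nhr-19 (950.7) and nhr-48 (672.1). The remaining hosts among the 20 are known by sequence names, D2023.3 (1130.5), Y111B2A.12 (936.1), ZK470.2 (935.6) and Y41G9A.17 (765.7). Over these 20 peaks the signal ranged from 387.8 to 1388 in replicate 1 and from 267.4 to 894.4 in replicate 2, all above the intronic medians of 92.9 and 67.1.

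The receptor's own gene was among the hosts. The nhr-48 peak lay in intron 1 of 15, 1582 bp from the outermost 5′ end, with a signal of 387.8 in replicate 1 and 296.1 in replicate 2. Reads from the endogenous nhr-48 locus and from an nhr-48 transgene cannot be told apart in these files.

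Nearly all of the 674 peaks overlapped a region in both replicates. The IDR filter had already kept regions of like rank in these replicates, so this overlap was largely set in advance. The counts that follow are a description and no independent evidence of reproducibility. A region of the replicate's own list, which holds 26941 regions in replicate 1 and 22704 in replicate 2 and includes background, overlapped 673 peaks in replicate 1, 671 in replicate 2 and 670 in both. Because those lists are long, a stricter count was made against the strongest regions of each list, as many as there are IDR peaks. By that count 606 peaks (89.9%) were among the top-ranked regions of replicate 1, 586 (86.9%) among those of replicate 2, 526 (78.0%) in both and 8 in neither.

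Signals of the replicates were correlated across the 670 peaks (Spearman's rho 0.69, given as a description, since peaks are not independent samples and the IDR filter selects for agreement of ranks). The summits of the replicates lay close to the pooled summit, with a median gap of 10 bp in replicate 1 and 15 bp in replicate 2. The peaks absent from a replicate's list were 1 in try-10, 1 in srt-52 and 1 in mob-2 for replicate 2, and 1 in gcy-31 for replicate 1. These 4 were picked out after their values were seen.

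**Figure D1:**
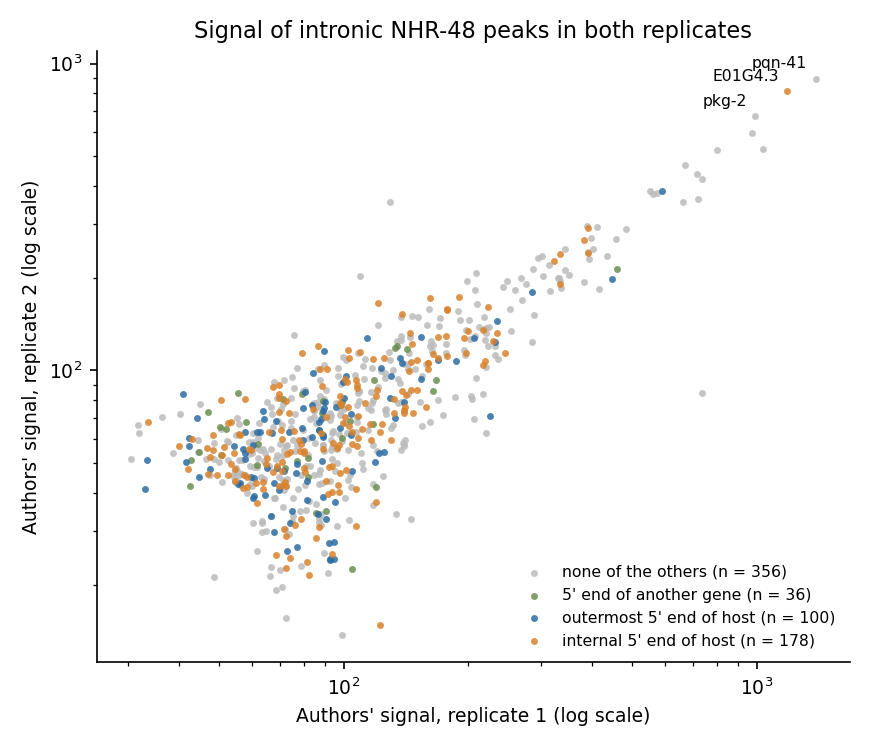
Each point is 1 of the 670 intronic peaks with a region in both replicates, with the authors' signal in replicate 1 on the x axis and in replicate 2 on the y axis, both log scales without a stated unit. Colours give the position of the summit relative to annotated 5′ ends; peaks of all 4 colours spread over the low and middle range, and the strongest peaks in pqn-41, E01G4.3 and pkg-2 are high in both replicates.

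Among peaks that passed the IDR filter, the median signal of intronic peaks was close to that of peaks between genes. Intronic peaks had a median of 155.2 (quartiles 115.5 and 227.4). The median was 154.3 (upper quartile 244.4) for 1044 intergenic peaks up to 1000 bp upstream of a protein-coding 5′ end. It was 160.6 (upper quartile 245.8) for 828 more distant intergenic peaks. All come from the same filtered list, with minima of 95.41, 95.4 and 95.65, so weaker regions were not compared. The share of intronic peaks above the median of all nuclear IDR peaks was 50.1%, against 49.7% of promoter peaks (adjusted p = 0.913) and 53.1% of distal peaks (adjusted p = 0.436; 2-sided Fisher's exact tests, Benjamini-Hochberg adjusted over 16 tests). The share in both top-ranked replicate lists, 78.0%, was not distinguishable by the same exact test from the 80.2% of promoter peaks or the 80.6% of distal peaks (odds ratios 0.88 and 0.86, adjusted p = 0.436 for each). The IDR filter had used the ranks in these replicates, so high shares in every class were largely set in advance.

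Intronic peaks were concentrated in long introns. The intron that held the summit had a median length of 2909 bp (95% interval 2445 to 3278 bp; quartiles 887.8 and 6196.8 bp), whereas the median of all 109051 distinct annotated introns was 68 bp. A long intron offers more sequence, so length was also read per base. The median base of intronic sequence lay in a 930 bp intron, with an upper quartile of 2401 bp, still below the median of the peaks. Per megabase (Mb) of intronic sequence open to the rule, the density was 5.97 peaks in introns up to 100 bp, 13 in introns above that and up to 500 bp, 9.91 from there to 1000 bp and 17.7 from there to 2000 bp. It was 34.9 between 2000 and 5000 bp, 52.1 between 5000 and 10000 bp and 45.2 above 10000 bp, against 20.8 over all intronic sequence. The classes over 2000 bp held 177, 148 and 63 peaks, and the exact Poisson intervals of these 3 classes lie above that of every class up to 2000 bp.

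First introns held the most peaks. Intron 1 contained 281 of the 674 peaks (41.7%, 37.9 to 45.5%), while 25.3% of the intronic sequence lies in first introns. The density was 34.2 peaks per Mb in intron 1 (95% exact Poisson interval 30.3 to 38.5), 21.7 in intron 2, 13.98 in intron 3, 21.1 in intron 4, 17.1 in intron 5 and 11.9 (9.76 to 14.4) in all later introns together. The last intron of the host held 63 peaks (9.35%), and the share of intronic sequence in last introns was not measured. Within a length class, intron 1 was denser than later introns from 500 to 2000 bp (23.8 against 10.6 per Mb) and from 2000 to 5000 bp (50.2 against 27.6). The intervals overlapped for introns up to 500 bp (14.9 against 9.86) and over 5000 bp (54.7, 44.7 to 66.3, against 45.8, 37.6 to 55.4).

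**Figure D2:**
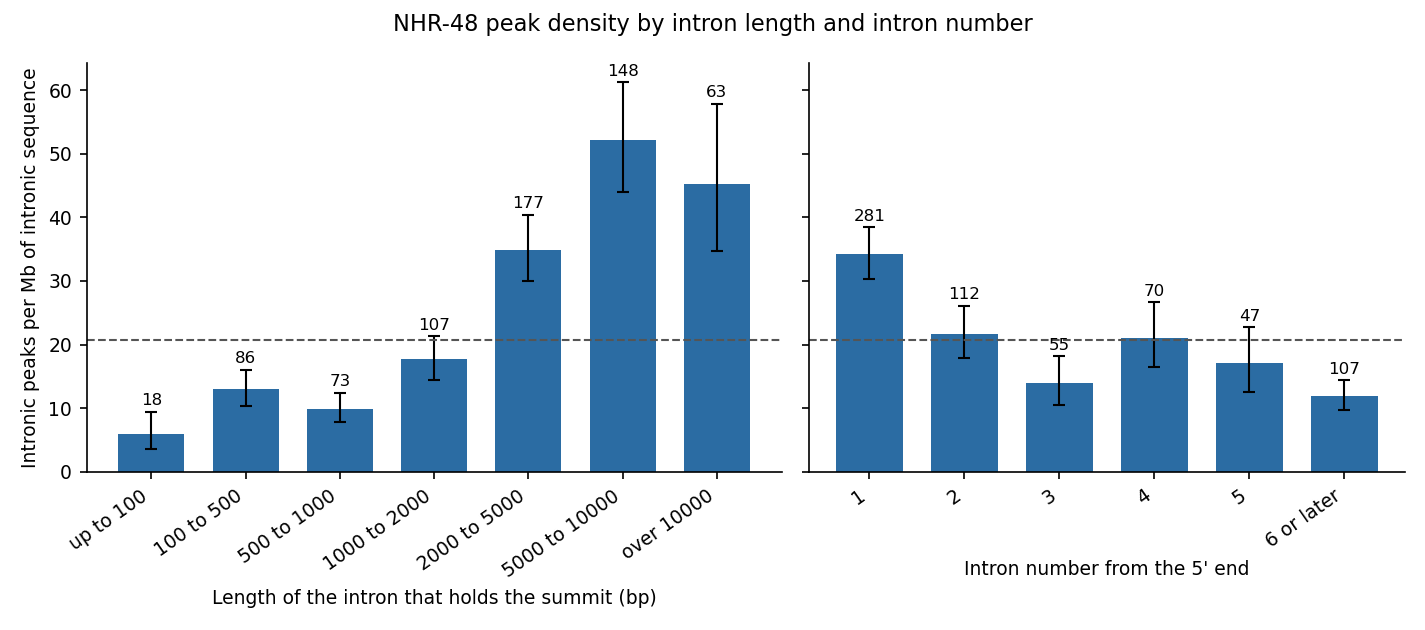
Bars give the number of intronic NHR-48 peaks per Mb of intronic sequence open to the rule, by length of the intron (left) and by its number from the 5′ end of the transcript (right), with 95% exact Poisson intervals and the number of peaks above each bar; the dashed line is the density over all intronic sequence, 20.8 per Mb. Density is highest in introns over 2000 bp and in intron 1.

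Signal did not follow the density. The median was 151.9 in intron 1 and 157.6 in later introns, and the 11 strongest intronic peaks all lay in later introns. Summits were spread along the intron. Of 672 summits in an annotated intron of a host transcript, 200 (29.8%) lay in the 5′-most of 3 equal parts of the intron, 261 (38.8%) in the middle part and 211 (31.4%) in the 3′-most part. The median distance to the nearer splice site was 568.5 bp, and 47 summits (6.97%) lay within 50 bp of one. The share of intronic sequence this near to a splice site was not measured. In 365 peaks (54.2%) the whole interval, and not the summit alone, was free of exons.

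Many peaks lay upstream of internal 5′ ends, the annotated starts of shorter protein-coding transcripts more than 500 bp inside a gene. A window from 1000 bp upstream to 200 bp downstream of such an end held 179 peaks (26.6%, 23.3 to 30.1%), while 10.2% of the intronic sequence lies in such windows. The density was 53.9 per Mb (46.3 to 62.4) inside the windows and 16.98 (15.5 to 18.6) outside. Of the 179, 174 (97.2%) were upstream of the 5′ end, with a median offset of -365 bp, and 76 lay within 300 bp upstream. The windows extend farther upstream than downstream, so the density per base was also read in steps of 250 bp. It was 65.5 per Mb (49.4 to 85.3) in the 250 bp before the 5′ end, 24.0 in the 250 bp after it and 12.6 in the next 250 bp. Upstream, the density was not confined to the nearest step. The other 11 steps out to 3000 bp ranged from 37.4 to 71.0 per Mb with overlapping intervals, and the highest value was that at -1250 to -1001 bp, outside the window.

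**Figure D3:**
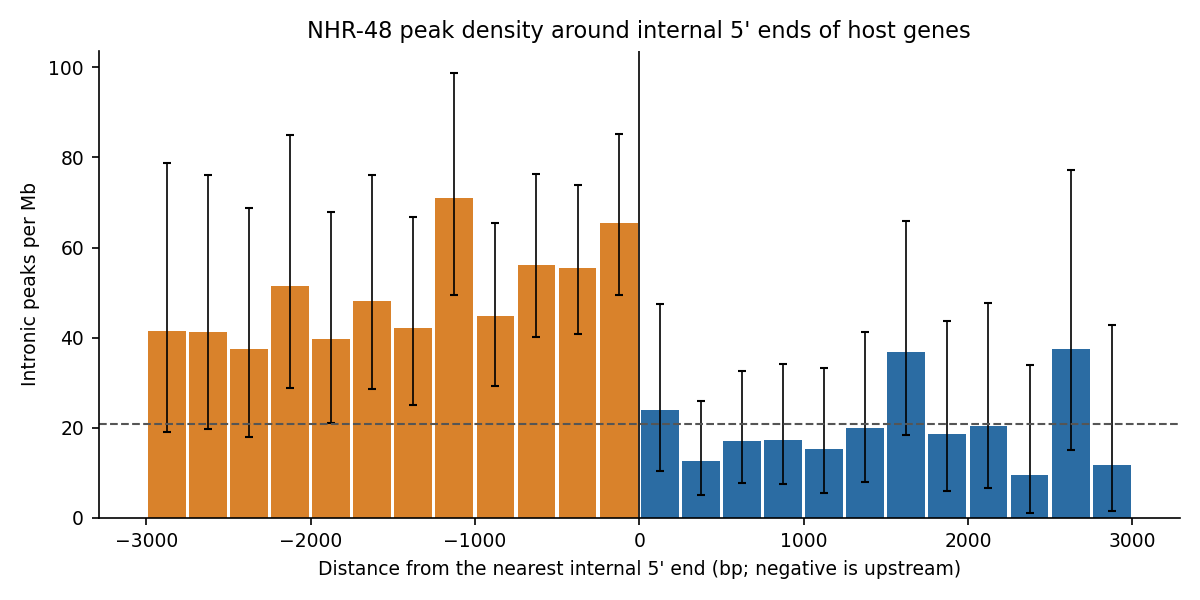
Bars give intronic peaks per Mb of intronic sequence in 250 bp steps of distance from the nearest internal 5′ end of the host gene, with 95% exact Poisson intervals; orange bars are upstream, blue bars downstream, and the dashed line is the density over all intronic sequence, 20.8 per Mb. Density is 65.5 per Mb in the first step upstream and 24.0 in the first step downstream of the end. All upstream steps out to 3000 bp lie above the dashed line, though some of their intervals include it. The highest has 71.0 per Mb at -1250 to -1001 bp. The bars cover only genes with an internal 5′ end, while the dashed line covers all genes. Outside the windows from 1000 bp upstream to 200 bp downstream, the former genes had 29.6 per Mb.

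Genes with internal 5′ ends are themselves rich in intronic peaks. There were 2905 such genes, and they hosted 491 of the 674 peaks (72.9%). These genes also hold much of the intronic sequence, 10.2% of it in the windows and another 32.5% outside them. Within them, the intronic sequence outside the windows still had 29.6 peaks per Mb (26.4 to 33.02), a density between that of the windows and that of all intronic sequence. Over all protein-coding genes, with or without an internal 5′ end, the windows were denser than the intronic sequence outside them in each class of intron length. The classes were not compared within genes that have such an end. The values were 40.3 against 9.28 per Mb in introns up to 500 bp, 45.02 against 9.53 from 500 to 2000 bp, 63.1 against 29.5 from 2000 to 5000 bp, and 76.7 against 45.8 over 5000 bp.

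After E01G4.3, the strongest peaks at internal 5′ ends lay in Y43F8B.2 (679.3, 27 bp upstream), in mbk-2, which encodes a DYRK family kinase of the oocyte-to-embryo transition (635.7, 282 bp upstream), and in zfp-1 (630, 710 bp upstream, and 528.9, 885 bp upstream). They were followed by the chaperone gene hsp-90 (564.9, 384 bp upstream, in intron 1), ipla-3 (555.1, 375 bp upstream), the CCCH zinc finger gene ccch-1 (381.4, 290 bp upstream), F26F12.3 (363.2, 160 bp upstream) and pkg-2 (360.3, 769 bp upstream). In all of these the signal in replicate 1 ranged from 190.4 to 1185.3 and that in replicate 2 from 132.5 to 814.9. Peaks at internal ends were otherwise of ordinary strength, with a median signal of 153.4. It was 164.3 for peaks outside all windows at protein-coding 5′ ends that are given next.

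Each of the other peaks was given 1 position, in the order that follows. Beside the 179 at internal ends, 100 (14.8%) lay up to 1000 bp inside a gene from its outermost 5′ end, 36 (5.34%) lay from 1000 bp upstream to 200 bp downstream of a 5′ end of another protein-coding gene, and 359 (53.3%, 49.4 to 57.1%) had none of these. Intronic sequence within 1000 bp of the outermost 5′ end held 17.5 peaks per Mb (14.7 to 20.6), and intronic sequence farther in held 21.8 (20.02 to 23.8). More than 1000 bp from that end lay 535 of the peaks. The shares of intronic sequence near 5′ ends of other genes, or in none of these positions, were not measured. Very long introns can contain whole genes. The 86515 bp first intron of cox-6B, a cytochrome c oxidase subunit gene, held 3 peaks, each at the 5′ end of a gene annotated within or beside it, pho-9 (665), swsn-3 (168.6) and nduc-2 (160.2), the last of them also 120 bp upstream of an internal 5′ end of cox-6B. The 100912 bp first intron of nhr-27 held 3, of which 2 lay at the 5′ ends of alh-13 (172.4) and cept-1 (142.5).

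The peaks lay in 454 host genes, which is 2.36% of the 19228 protein-coding genes with intronic sequence open to the rule. A single peak was found in 322 of them. Hosts were long genes; the 448 to which peaks were assigned had a median length of 6747 bp against 2027 bp for all protein-coding genes. The share of genes with a peak was 0.248% where a gene had up to 0.5 kb of such sequence, 0.931% from 0.5 to 1 kb, 2.31% from 1 to 2 kb, 4.22% from 2 to 5 kb, 10.99% from 5 to 10 kb and 17.9% above 10 kb. Counts of hosts below are for this reason given with the density per Mb. This density still varied with intron length, from 5.97 in introns up to 100 bp to 52.1 in introns of 5000 to 10000 bp. The densities of gene lists were not matched for intron length, so its part in them was not tested.

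After overlapping intervals were merged, 612 separate intronic peaks remained, and 104 hosts held 2 or more, 38 held 3 or more and 15 held 4 or more. The merging matters because 59 pairs of neighbouring intronic peaks overlapped, with a median gap between summits of 203 bp, and 56 of the 59 gaps fell between 190 and 220 bp. In such a pair the stronger summit had a median of 2.40 times the signal of the weaker. Overlapping summits can share a region in a replicate's list, which was so for 12 peaks in replicate 1 and 10 in replicate 2. Among them are 2 points far off the trend in the plot of replicate signals, picked out after their values were seen. A weaker abts-4 summit (129.2) took the value 738.7 in replicate 1 from the region of its neighbour, and a weaker egl-27 summit (173.5) took 353.6 in replicate 2.

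The gene with the most separate peaks was pkg-2, with 8 in its introns 4 and 5, at pooled signals from 129.3 to 1661.4. ZK470.2 held 7, all in intron 4. The chromatin gene zfp-1 held 5 separate peaks in introns 4 and 9, where its 3 strongest summits reached 717.3, 630 and 528.9. The 14446 bp first intron of daf-5, which encodes the Sno/Ski family partner of the dauer TGF-beta pathway, held 5, with signals of 667.3, 349.7, 222.5, 216.8 and 97.64. In daf-5 the replicates gave 434.8 and 236.9 at the strongest summit and 31.81 and 66.17 at the weakest, which was the only one of the 5 higher in replicate 2.

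Y43F8B.2 and rpoa-1, the gene of an RNA polymerase I subunit, also held 5 separate peaks each. Those with 4 were pqn-41, E01G4.3, H18N23.2, Y67D8A.2, ifbp-1, mob-2, the AMP-activated kinase gamma subunit gene aakg-1, the FOXO factor gene daf-16 and the CREB-like factor gene crh-2. Among the 23 hosts with 3 were the bZIP factor genes atf-7 and jun-1, the SKN-1 gene skn-1 of the oxidative stress response, egl-44, the TEAD homologue, the forkhead gene fkh-7, the receptor genes nhr-46 and nhr-27, the MAP kinase phosphatase gene vhp-1, the Nemo-like kinase gene lit-1, and lin-14, which times early larval fates. The other hosts with 3 were tre-2, Y111B2A.12, cox-6B, Y62E10A.13, ppfr-1, scd-1, tent-5, saeg-1, osgn-1, the chaperonin gene cct-5, wht-7, ell-1 and ercc-1.

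**Figure D4:**
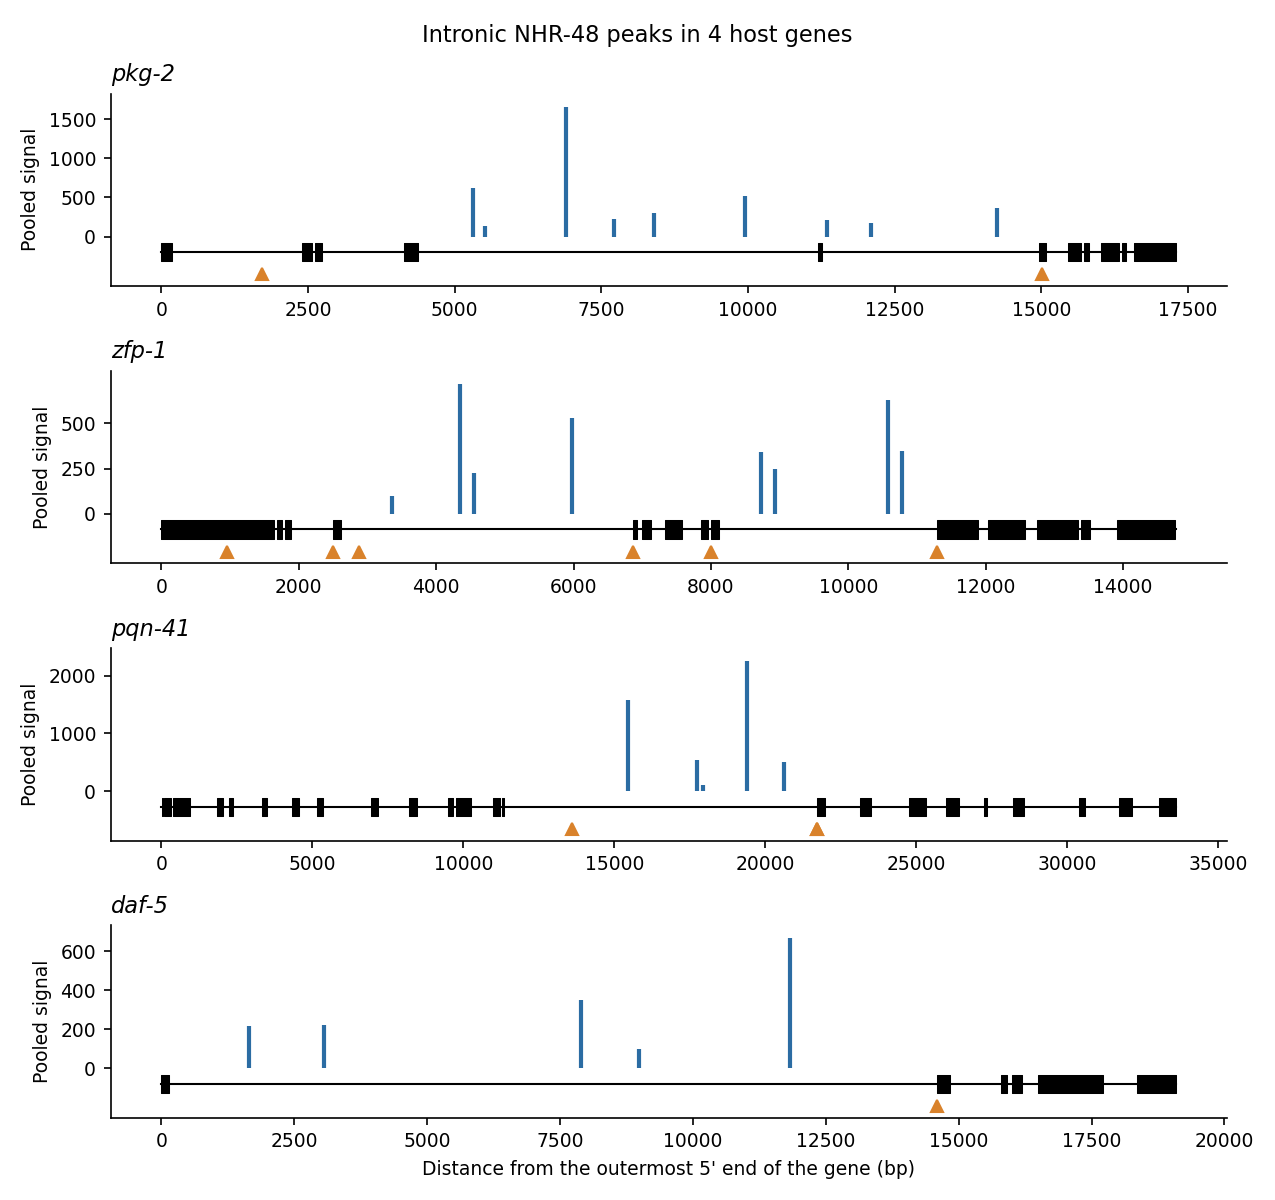
Each panel shows a host gene in its transcript with the longest exon total, with distance in bp from the outermost annotated 5′ end on the x axis, exons as black boxes, internal 5′ ends as orange triangles, and each intronic peak as a blue line at its summit whose height is the pooled signal. In pkg-2 and zfp-1 the peaks are spread over 2 long introns, in pqn-41 and daf-5 they fall in 1.

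The hosts were set beside 15 gene lists. These hold 2454 genes, of which 57 had an intronic peak, and each is described by its count and density, beside the 2.36% and 20.8 per Mb of all genes, with no test. Most lists were drawn up from gene names, so they do not hold every gene of a class, and each count and bound is that of the list. Nuclear hormone receptor genes, the family of NHR-48 itself, were hosts in 15 of 274 cases (5.47%), with 47.02 peaks per Mb (30.1 to 69.96). The strongest were in nhr-19 (950.7), nhr-48 (672.1), nhr-3 (653.5, 402.4 and 249.1 in the replicates) and nhr-14 (358.2). The dauer receptor gene daf-12 had summits of 334.6 (197.7 and 136 in the replicates) and 157.4 (84.53 and 74.03) in its 8353 bp first intron of 18, of which the first was the higher in both replicates.

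Genes of insulin and TGF-beta signalling were hosts in 6 of 30 cases (20%), with 20 peaks and 124 per Mb (76.0 to 192). They were daf-5, the Schnurri homologue sma-9 (493), the Smad gene daf-14 (469.3), daf-16 (327.9), the kinase gene pdk-1 (188.8) and sma-5 (124). sma-5 is a MAP kinase gene that entered the list by its name. GATA and forkhead factor genes were hosts in 4 of 25 cases (16%), with 12 peaks and 119 per Mb (61.6 to 208), in egl-27, fkh-7 (383.6), fkh-9 (342.7) and daf-16. daf-16 is counted in both lists, and egl-27 is a GATA-type zinc finger gene outside the elt family. The densities of all lists, and the 20.8 per Mb, count overlapping summits singly. After merging, sma-9 held 2 separate peaks in place of 4, and daf-14 held 2 in place of 3. Likewise daf-16 held 4 in place of 5 and egl-27 held 1 in place of 2, while the other hosts of both lists were unchanged. Heterochronic genes, which set the order of larval fates, were hosts in 4 of 16 cases (25%; 72.2 per Mb), namely daf-12, lin-28 (173.4), the Period-like gene lin-42 (153.2) and lin-14 (141.6).

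Fatty acid genes were hosts in 11 of 85 cases (12.9%), with 95.3 peaks per Mb (49.3 to 167). A gene of this list had a median of 844 bp of intronic sequence open to the rule, against 752 bp for all genes. The strongest peak lay in the acyl-CoA synthetase gene acs-13 (529.4). It was followed by the desaturase gene fat-4 (258.7), acs-22 (168.9) and nhr-49 (160.1), a receptor that controls fat desaturation and oxidation and is counted among the receptors too. The desaturase genes fat-3 (143.3) and fat-6 (134.5), the elongase gene elo-1 (120.3), acs-20, acs-5, acox-1.3 and acdh-7 completed the list. In fat-3, fat-4 and fat-6 the summit lay 764, 274 and 231 bp upstream of an internal 5′ end.

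In the signalling lists with fewer hosts, Notch and Ras genes were hosts in 3 of 26 cases (11.5%; 26.7 per Mb), with the CSL factor gene lag-1 strongest at 355.4, then mpk-1 (193.6) and ksr-2 (100.9). Wnt genes were hosts in 2 of 29 cases (6.90%; 38.6 per Mb), mom-1 and lit-1. Genes of bHLH factors were hosts in 3 of 38 cases (7.89%; 58.9 per Mb), in hlh-30, the TFEB homologue (205.3), hif-1 (137.6) and mdl-1 (125.5). The intervals of these 3 densities all include the 20.8 per Mb of all genes.

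Several lists had few or no peaks. The ion channel list had hosts in 4 of 204 cases (1.96%), but with 4.51 peaks per Mb (1.23 to 11.6) in 0.887 Mb. Its hosts were twk-5 (245.9), asic-2 (144.6), glr-2 (131.6) and clh-1 (105.6). The axon guidance and cell adhesion list, with a median of 4727 bp of intronic sequence per gene against 752 bp for all genes, had 1 peak in 0.549 Mb, in rig-6 (152.2). The G protein and neuropeptide receptor list had 3 peaks in 0.601 Mb, in gpa-1 (172.7) and gsa-1 (113.1). The 89 listed homeobox genes had none in 0.300 Mb, where the exact Poisson interval of a count of 0 reaches 12.3 per Mb. The listed muscle structure genes had none in 0.193 Mb, where that interval reaches 19.1 per Mb.

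Genes of these classes that the lists do not hold were nevertheless among the hosts. Looked up after the host table was seen, and not in full, they included the homeobox genes irx-1 (141.5) and unc-62 (99.71), and the channel gene egas-4 (108.3). They also included the receptor genes gnrr-3 (352), sprr-2 (141.1) and sprr-1 (99.94) and the G protein beta subunit gene gpb-1 (110.8). The actin gene act-4 (145.6) and the sarcoglycan gene sgca-1 (169.3) were hosts as well. The low counts of the lists therefore do not extend to the whole classes.

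Chemoreceptor genes were hosts in 5 of 1297 cases (0.386%), with 6.97 peaks per Mb (2.80 to 14.4), strongest in srh-2 (268.6) and srv-7 (244), then srx-41 (125) and sre-45 (106.9). Ribosomal protein genes had no peak, but they hold only 0.0146 Mb of intronic sequence, and the interval of a count of 0 reaches 252 per Mb.

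Peaks were unevenly shared among the chromosomes. The density was 27.4 per Mb of intronic sequence on X (144 peaks; 23.1 to 32.3), between 21.3 and 22.8 on II, III and IV, 16.7 on V and 15.2 on I. The X held 21.4% of the intronic peaks and 16.2% of the intronic sequence.

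Motifs at the summits were compared with the same peaks' own flanks, 100 bp centred 300 bp downstream on the host strand. GAGAGA was found at 158 of 674 summits (23.4%, 20.3 to 26.8%) and in 4.90% of flanks, a ratio of 4.79 (2-sided exact McNemar test, adjusted p = 1.48e-21 over 6 motifs). The GAGAGA ratio was lower against upstream flanks (2.77) and with 200 bp windows (2.89), and past the threshold in both. CACGTG, the E-box of bHLH factors, was found at 75 summits (11.1%) and in 2.52% of flanks (ratio 4.41, exact adjusted p = 5.12e-10). TGATAA was found at 176 summits (26.1%) and in 10.7% of flanks (ratio 2.44, exact adjusted p = 6.50e-13). These 3 motifs were chosen because they were known to be frequent at NHR-48 summits as a whole, so their direction here is no independent evidence. At least 1 of the 3 was present at 355 summits (52.7%), 2 or 3 at 51, and none of the 6 motifs at 276.

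The hexamers of the nuclear receptor type did not pass the test. AGTGCA was found at 4.45% of summits and 2.82% of flanks (exact adjusted p = 0.183). AGGTCA was found at 2.37% of summits and 2.67% of flanks (exact adjusted p = 0.86). AGTTCA was found at 5.19% of summits and 8.01% of flanks, a ratio of 0.65 (exact adjusted p = 0.0713), and the call depended on the setting. It passed after overlapping peaks were merged (ratio 0.57, exact adjusted p = 0.0211) and against upstream flanks (ratio 0.61, exact adjusted p = 0.0369). It did not pass without replicate 1 (ratio 0.93, exact adjusted p = 0.828), without replicate 2 (ratio 0.76, exact adjusted p = 0.313), with 200 bp windows (ratio 0.77) or with wholly intronic flanks (ratio 0.64). Summits were richer in G and C than flanks, at 43.0% against 36.8%. The median ratio of summits to flanks over all hexamers of equal GC content was 1.08 for GAGAGA, 1.29 for CACGTG and 0.71 for TGATAA, below the ratios of 4.79, 4.41 and 2.44 of these motifs. Among the 443 peaks whose flank was wholly intronic, the ratios were 4.38, 5.27 and 2.23.

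**Figure D5:**
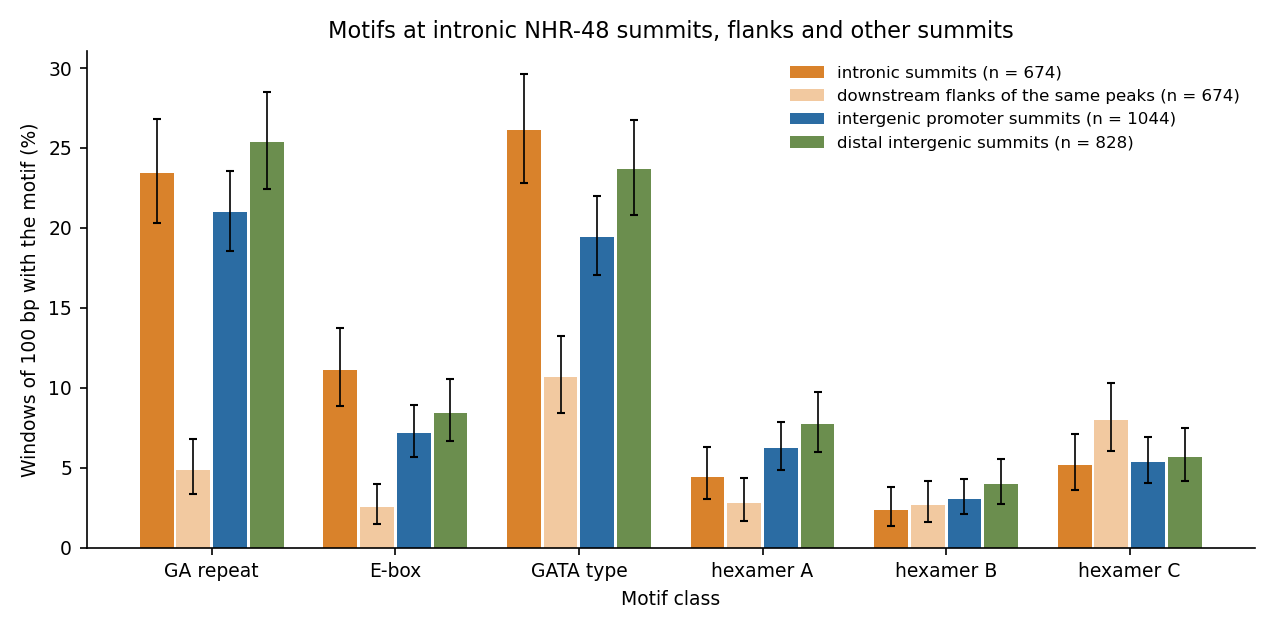
Bars give the percentage of 100 bp windows that hold a motif on either strand, at intronic summits, at their downstream flanks, and at intergenic promoter and distal summits, with 95% exact intervals. The GA repeat is GAGAGA, the E-box motif is CACGTG, the GATA-type motif is TGATAA, and the hexamers in the order drawn are AGTGCA, then AGGTCA, then AGTTCA. The first 3 are more frequent at intronic summits than in the flanks, and the last 3 are not past the test.

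Against summits outside genes the motif shares of intronic summits differed little. TGATAA was more frequent at intronic than at promoter summits (26.1% against 19.4%, odds ratio 1.46, exact adjusted p = 0.0206), and so was CACGTG (11.1% against 7.18%, odds ratio 1.62, exact adjusted p = 0.0409). Without replicate 1, when the top-ranked regions of replicate 2 stood for the peaks, neither call held up (exact adjusted p = 0.0531 for TGATAA and 0.14 for CACGTG), nor did that of TGATAA without replicate 2 (exact adjusted p = 0.0555). Both were also lost with 50 bp windows. With overlapping peaks merged both held (exact adjusted p = 0.0159 for each), and with 200 bp windows that of CACGTG held (odds ratio 1.82, exact adjusted p = 0.000424) and that of TGATAA did not. None of the 6 motifs differed from distal summits past the threshold, the nearest being AGTGCA (4.45% against 7.73%, exact adjusted p = 0.053). GAGAGA had odds ratios of 1.15 against promoter and 0.90 against distal summits.

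Within the intronic peaks the motif shares were described by position and strength. GAGAGA was present at 29.1% (22.5 to 36.3%) of summits at internal 5′ ends and 15% (8.65 to 23.5%) at the outermost 5′ end. Its share was 23.4% (19.1 to 28.1%) of summits outside all the windows at protein-coding 5′ ends defined above. CACGTG was present at 15.7% (11.97 to 20%) of summits with a signal above the median of all nuclear IDR peaks and at 6.55% (4.15 to 9.75%) of those below it. TGATAA showed 24.3% and 28.0% above and below the same median, with overlapping intervals. On X, GAGAGA was present at 17.4% (11.6 to 24.6%) of summits and on the autosomes at 25.1% (21.5 to 29.0%). No difference between these groups was tested.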

How the data were processed

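The deposited files are region lists from 2 biological replicates, on builds ce10 and ce11, of which ce11 was used. Their columns hold the authors' signal score per region, a −log10 p or q column in the format of the deposited lists, and the summit's offset. Per the deposited file listings, regions were called against a control in each replicate and in the pooled data, with background kept, and then filtered by IDR. Which aligner and caller were used, and the signal's scale, is not given in the sources used here. Pooled regions number 30000 and IDR peaks 3361, of which 23 are mitochondrial.

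Summits were placed in Ensembl release 115 gene models (WBcel235, the sequence of ce11). Each peak was assigned to the host transcript with the longest exon total among those whose intron held the summit, and intronic sequence was classified base by base by the same rule. A replicate's value is that of the overlapping region (at least 1 bp) with the nearest summit. Signal was not normalized further, and depth was unknown. Shares carry exact Clopper-Pearson and densities exact Poisson 95% intervals, also where the count is 0. Scripts ran in Python 3.11.15 with scipy 1.17.1 and were tested on simulated data.

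Members and lists were chosen with earlier results of these data known. Named genes are hosts of the 20 strongest peaks found in both replicate lists, hosts with 3 or more separate peaks, hosts of the 10 strongest peaks at internal 5′ ends, nhr-48, daf-12, pqn-41, and up to 4 hosts a list by signal, with further hosts of some lists named after their values were seen. Alternatives were other windows, flanks and rules for intron membership, merged peaks, peaks above the median signal and leaving out a replicate.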

Additional observations from a re-analysis of the deposited data

How the results depend on the processing

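Requiring the whole peak to be free of exons left 365 peaks in 222 hosts, with 46.3% in intron 1, 22.5% at internal 5′ ends, 9.31% within 1000 bp of the outermost end and a median intron of 4443 bp. Peaks above the median signal numbered 338 in 242 hosts, 16.3% of them within 1000 bp of the outermost end, and 30 listed genes with a peak in place of 57. The share at internal 5′ ends was 15.6% with the window from 500 bp upstream to 100 bp downstream, 41.1% with that from 2000 bp to 500 bp, and 36.5% among peaks whose host has such an end, an alternative added after the data were seen. The share near the outermost end was 10.98% within 500 bp and 38.1% within 2000 bp. For AGTTCA against flanks the ratio was 0.57 with merged peaks and 0.61 with upstream flanks, both past the threshold, and 0.76 to 0.93 with a replicate left out, not past it. For GAGAGA it ranged from 2.77 with upstream flanks to 6 with 50 bp windows, past the threshold in every alternative run.

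Against promoter summits, CACGTG missed the threshold with 50 bp windows (odds ratio 1.39, exact adjusted p = 0.779) and passed with 200 bp windows (1.82) and merged peaks (1.74). TGATAA missed it with 50 bp (1.41, exact adjusted p = 0.329) and 200 bp windows (1.26, exact adjusted p = 0.137). Without peaks at 5′ ends, also added later, the odds ratios were 1.66 (exact adjusted p = 0.109) and 1.37 (exact adjusted p = 0.156). Leaving out a replicate in turn gave odds ratios from 1.48 to 1.67 for CACGTG and from 1.35 to 1.40 for TGATAA, and from 0.96 to 1.79 for CACGTG against distal summits, which passed the threshold without replicate 2 (exact adjusted p = 0.0375). The cause was not tested. Of the 454 hosts, 370 were shared with the list without replicate 1 and 388 with that without replicate 2. No paired analysis was possible because there is only 1 group. The unknown depth, a control that was not analysed here and the single transgenic line limit these results.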

Other observations

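Intronic peaks were dense near genes for small nuclear and nucleolar RNAs, many of which lie inside introns of worm genes. Intronic sequence within 500 bp of a small nucleolar RNA (snoRNA) gene, a guide of ribosomal RNA modification, held 27 peaks, or 285 per Mb (188 to 415), against 20.8 per Mb of all intronic sequence. Near small nuclear RNA genes of the spliceosome there were 7 peaks, 202 per Mb (81.1 to 416), and near microRNA genes 11, 193 per Mb (96.1 to 345). Near piRNA genes, which are numerous and very short, the density was 13.8 per Mb (8.19 to 21.8). The neighbourhoods of snoRNA genes cover 0.0948 Mb of intronic sequence and those of piRNA genes 1.30 Mb, and the values are a description without a test.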
